A study of Mus musculus with 12 samples.

Results

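The 10 genes described here make, restrain or break down the polyamines, and were taken by their symbols from the 24982 gene symbols listed in each of 12 RNA-seq files. They are Odc1, Amd1, Srm and Sms for synthesis, Azin1, Oaz1 and Oaz2 for control of ornithine decarboxylase, and Sat1, Smox and Paox for breakdown. All 10 were found, and all 10 passed the filter on low values in each comparison. The 12 libraries held polyadenylated RNA of B lymphocytes from the spleens of mice 6 weeks of age. The WT group came from C57BL/J6 mice, the Eμ-Myc group from mice with that transgene, and the Eμ-Myc; PRPS2 KO group (below, the knockout group) from mice with both the transgene and the loss of Prps2. Each group had 4 libraries, numbered as biological replicates. Eμ-Myc drives Myc from the immunoglobulin heavy chain enhancer, so the transgene acts in B-lineage cells, and both transgenic groups carry it. Prps2 encodes an isoform of phosphoribosyl pyrophosphate synthetase, which starts nucleotide synthesis. The study asked which gene programs Myc deregulates in B cells and how loss of Prps2 meets them.

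Putrescine, spermidine and spermine are small positively charged molecules that bind nucleic acids and are needed for translation and growth. Ornithine decarboxylase makes putrescine from ornithine, decarboxylated S-adenosylmethionine supplies the aminopropyl groups, and spermidine synthase and spermine synthase add them in turn. Antizymes bind ornithine decarboxylase and send it to the proteasome, antizyme inhibitor sequesters antizyme, and acetylation followed by oxidation carries spermine and spermidine back to putrescine. Odc1 is a textbook direct target of Myc, and RNA levels are only one layer of control here, since antizyme is regulated by frameshifting during its translation.

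Values below are scaled coverage, the deposited coverage of a gene divided by 1 factor per library, and they are compared between libraries, not between genes. Deposited coverage summed to between 1277305.5 and 1885768.9 per library. Its depth in reads is unknown. Myc stood at 231 to 353 in WT, at 1551 to 2286 in Eμ-Myc and at 1125 to 3123 in the knockout. Prps2, the targeted gene, stood at 15.4 to 18.7 in the knockout against 198 to 285 in Eμ-Myc and 102 to 143 in WT, as the labels say. Xist was at most 0.1 in deposited coverage and the Y-linked Ddx3y at least 38.8 in each library, so the X-linked Sms and Sat1 were read in libraries of the same kind.

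The libraries did not fall evenly within their groups. Knockout libraries 1 and 2 had summed coverage of 744 and 798 over the T-cell markers, against 53.0 and 54.5 in knockout libraries 3 and 4 and 144 to 203 in Eμ-Myc. In WT the same sum ran from 632 to 3234. The 8 myeloid markers summed to 15814 and 11540.0 in knockout libraries 1 and 2 and to 2886 and 1256 in knockout libraries 3 and 4, while WT library 1 reached 25637. All 7 B-cell markers were present in every library, and their sum ran from 6282 to 12067 in WT, from 7174 to 8992 in Eμ-Myc and from 6352 to 7412 in the knockout. Among them Cd22 was lower than in WT in Eμ-Myc (log2 fold change -0.99, adjusted p 0.00394, limma) and in the knockout (-0.98, 0.0432). It was at 835 and 798 in knockout libraries 1 and 2 and at 452 and 450 in knockout libraries 3 and 4. In these bulk samples, fewer cells of a type and less RNA per cell cannot be told apart.

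The synthesis genes were higher together in the Eμ-Myc libraries. All 4 were higher in Eμ-Myc than in WT with no overlap between the groups, by 1.63-fold for Sms to 5.59-fold for Srm (limma, Benjamini-Hochberg adjusted p over all genes tested, 4 libraries against 4). Groups did not overlap for 52.1% of all genes tested. Over the 10 genes, 7 were called higher and 1 lower at an adjusted p under 0.05. Among all 12704 genes tested in this comparison 55.8% were called, 29.1% higher and 26.7% lower. The median log2 fold change was 0.48 over the 10 genes and -0.05 over all genes tested. The 8 calls among 10 stand beside 55.8%, and the 7 higher calls beside 29.1%. The genes were chosen with earlier results of these data known, and their count was not tested as a set.

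Odc1, ornithine decarboxylase, lies at chr12:17544808-17551502 on the plus strand (mm10). Its scaled coverage was 64.5, 93.8, 87.9 and 66.3 in WT libraries 1 to 4 and 202, 213, 259.9 and 257 in Eμ-Myc libraries 1 to 4. The knockout libraries gave 123, 168, 385 and 363. Each transgenic library stood above each WT library, knockout libraries 1 and 2 stood below all Eμ-Myc libraries, and knockout libraries 3 and 4 stood above them. The rise in Eμ-Myc was 1.58 ± 0.15 (log2 fold change ± SE), or 2.99-fold, with an adjusted p of 3.97e-05 in limma.

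Myc binds the E-box CACGTG and, with lower affinity, variants such as CACGCG. The stretch before the annotated start of Odc1 is shown because it holds the variant on both strands, CGCGTG from 115 bases and CACGCG from 36 bases before the start, in capitals (RefSeq sequence, GRCm38.p6, chr12:17544623-17544807, plus strand).
Odc1: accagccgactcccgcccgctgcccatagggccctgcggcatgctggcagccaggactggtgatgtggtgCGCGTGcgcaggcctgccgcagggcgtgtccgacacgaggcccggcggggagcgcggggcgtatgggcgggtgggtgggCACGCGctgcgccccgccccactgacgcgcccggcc
In the RefSeq windows of 250 bases before to 50 bases after a start, 7.15% of 32851 promoters held CACGTG, and 9.27% held CACGCG or its reverse complement CGCGTG. Either was found in 15.4% of promoters and in 4 of the 10 promoters listed for 8 of these genes. These were Odc1, both starts of Sms, and Oaz1. Windows of Srm and Azin1 are not used here. A match of letters is a description of the window and not a binding site.

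Amd1 encodes S-adenosylmethionine decarboxylase, which makes the aminopropyl donor, and lies at chr10:40287458-40302188. Its values were 22.9, 22.3, 22.3 and 18.9 in WT, 42.2, 38.1, 41.9 and 43.5 in Eμ-Myc, and 26.0, 35.1, 59.8 and 62.5 in the knockout. Every Eμ-Myc library was above every WT library, and the rise was 0.93 ± 0.11 (adjusted p in limma 9.67e-05). The value is uncertain in its source. The near copy Amd2 at chr10:35708691-35711891 differed from Amd1 by at most 0.2 in deposited coverage in all 12 libraries, and 76.7% of the 50-base words of Amd1 transcripts also occur in Amd2 transcripts. The coverage of the pair cannot be told apart in these values, and Amd1 stands here for both.

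Srm, spermidine synthase, showed the largest change of the 10 genes in Eμ-Myc. It lies at chr4:148591513-148594619. WT libraries 1 to 4 held 61.2, 60.5, 53.1 and 72.0, Eμ-Myc libraries 299, 398, 339.6 and 350.1, and knockout libraries 185, 260.2, 526 and 510.4. The lowest transgenic library, knockout 1, was still above the highest WT library. The change in Eμ-Myc was 2.48 ± 0.12 on the log2 scale, with an adjusted p of 2.17e-06 in limma.

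Sms, spermine synthase, is X-linked (chrX:157443851-157492287, minus strand). It stood at 36.9, 45.5, 42.9 and 47.8 in WT, at 62.3, 70.5, 72.5 and 77.1 in Eμ-Myc and at 52.3, 55.2, 92.7 and 94.4 in the knockout. All 8 transgenic libraries were above the WT libraries, but the rise in Eμ-Myc, 0.70 ± 0.11 (adjusted p 0.000723, limma), was the smallest of the 4 synthesis genes. The sequence before its outer start is shown because it carries the only CACGTG found in the 10 promoters searched, beginning 196 bases before the start (chrX:157492288-157492537, minus strand, GRCm38.p6).
Sms: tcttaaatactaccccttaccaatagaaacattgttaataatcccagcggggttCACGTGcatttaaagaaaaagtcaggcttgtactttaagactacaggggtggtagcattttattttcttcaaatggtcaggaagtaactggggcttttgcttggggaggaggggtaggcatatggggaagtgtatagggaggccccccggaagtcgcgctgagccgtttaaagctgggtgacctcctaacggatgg

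**Figure D1:**
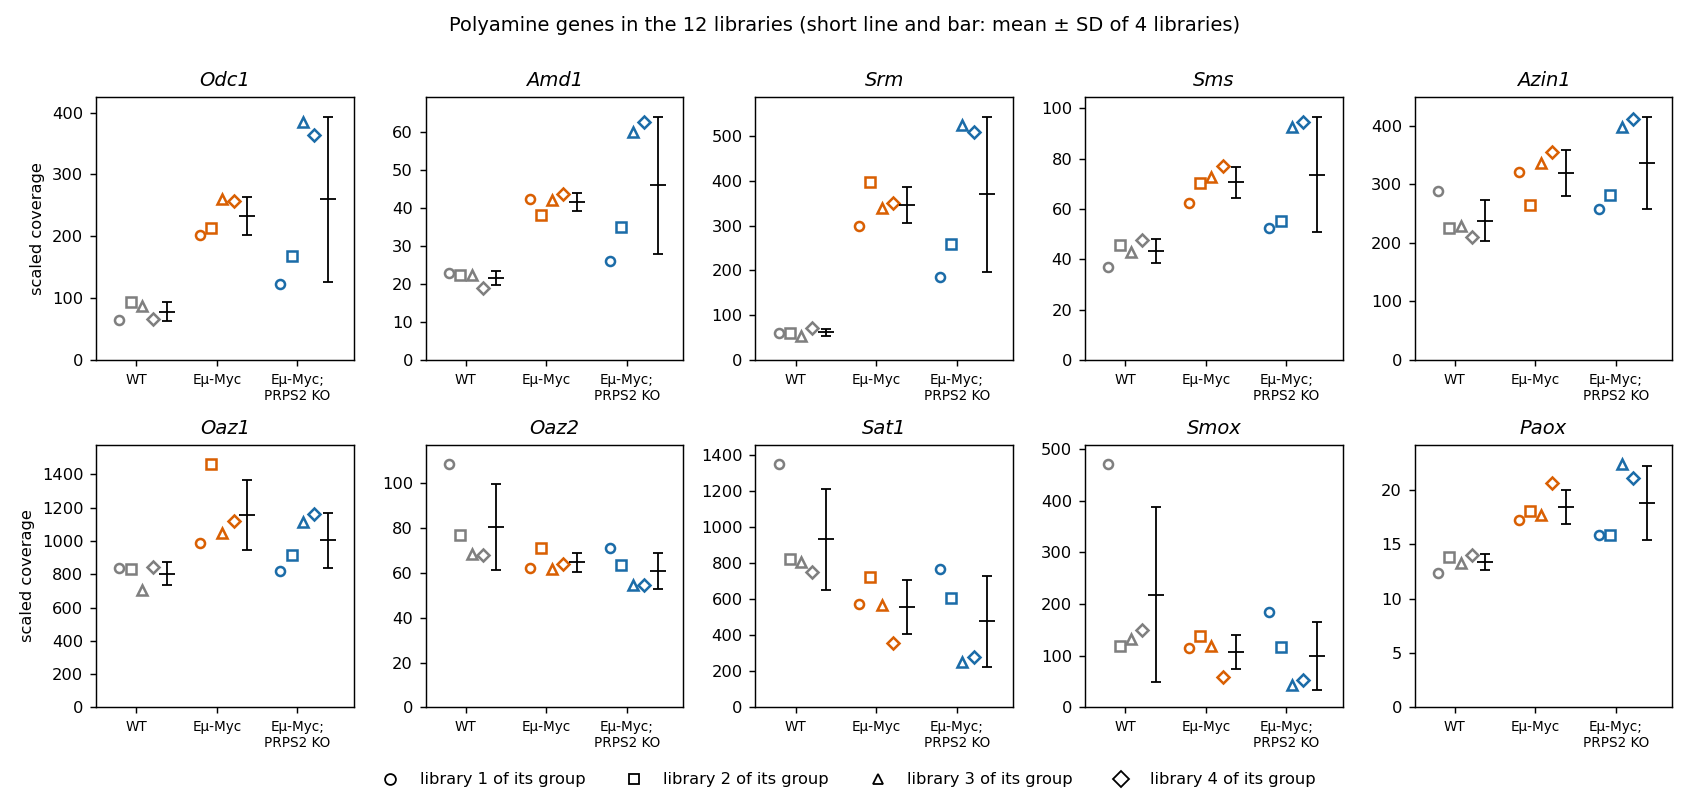
Scaled coverage (linear axis from 0, no unit) of the 10 polyamine genes in each library of WT, Eμ-Myc and Eμ-Myc; PRPS2 KO, with symbols for libraries 1 to 4 and the mean ± SD of 4 beside them. Odc1, Amd1, Srm and Sms are higher in each Eμ-Myc library than in each WT library, and knockout libraries 3 and 4 stand apart from knockout libraries 1 and 2.

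The genes that control ornithine decarboxylase moved less than the synthesis genes, and they did not move as a group. Azin1, antizyme inhibitor, and Oaz1, the main antizyme, were called higher in Eμ-Myc, and Oaz2 was not called. Azin1 (chr15:38487430-38519294) stood at 288, 226, 228 and 209 in WT, at 320.1, 265, 335 and 355 in Eμ-Myc and at 258, 281, 397 and 411 in the knockout. Its WT and Eμ-Myc values overlapped, since Eμ-Myc library 2 lay below WT library 1. The log2 fold change was 0.42 ± 0.13 (adjusted p 0.0213, limma). This call was lost with scaling to total coverage (0.28, adjusted p 0.106) and with all 12 libraries in one fit (adjusted p 0.0656). It was also lost in 5 of the 8 fits that leave out 1 library, at log2 fold changes of 0.37 to 0.41, with adjusted p 0.0516, 0.0518 and 0.0527 without WT libraries 2, 3 and 4, and 0.0608 and 0.0657 without Eμ-Myc libraries 3 and 4.

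Oaz1 (chr10:80826656-80829290, plus strand) encodes the protein that delivers ornithine decarboxylase to the proteasome. It stood at 836, 829, 704 and 846 in WT and at 987, 1461, 1048 and 1122 in Eμ-Myc, with no overlap. The knockout values were 817, 916, 1117 and 1164, and knockout library 1 lay inside the WT range. Eμ-Myc was higher by 0.51 ± 0.13 on the log2 scale (adjusted p 0.0101, limma). Its promoter window holds CACGCG, which begins 212 bases before the start (chr10:80826406-80826655, plus strand, GRCm38.p6). It is shown beside that of Odc1, and such letters were not tested against the size of a change.
Oaz1: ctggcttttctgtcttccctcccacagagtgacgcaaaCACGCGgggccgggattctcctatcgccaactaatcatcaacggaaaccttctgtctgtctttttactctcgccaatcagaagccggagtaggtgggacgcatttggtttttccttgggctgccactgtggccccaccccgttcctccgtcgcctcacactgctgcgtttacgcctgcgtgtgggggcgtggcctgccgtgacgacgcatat
Oaz2, a second antizyme (chr9:65676548-65690300), had its highest value in WT library 1, with 108, 76.9, 68.2 and 68.0 in WT, 62.0, 70.8, 61.7 and 63.7 in Eμ-Myc and 71.0, 63.6, 54.3 and 54.4 in the knockout. The groups overlapped, and the log2 difference of -0.29 ± 0.15 between Eμ-Myc and WT did not pass (adjusted p 0.131, limma). Without WT library 1 it was -0.14 (adjusted p 0.284). With scaling to total coverage (-0.43, adjusted p 0.0208) and with library quality weights (-0.25, adjusted p 0.0422), Oaz2 was called lower.

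The breakdown genes differed in direction. Sat1 was called lower in Eμ-Myc, Smox was not called, and Paox was called higher. Sat1 encodes spermidine/spermine N1-acetyltransferase, the rate-limiting step of catabolism, and is X-linked (chrX:155213126-155216449). It stood at 1349, 823, 807 and 751 in WT, at 575, 724, 568 and 357 in Eμ-Myc and at 770.0, 605, 253 and 279 in the knockout. All Eμ-Myc libraries were below all WT libraries, WT library 1 was far above the other WT libraries, and knockout library 1 lay inside the WT range. The log2 fold change in Eμ-Myc was -0.75 ± 0.25 (adjusted p 0.0278, limma). Without WT library 1 it was -0.56 (adjusted p 0.0563), without Eμ-Myc library 3 -0.77 (0.0532) and without Eμ-Myc library 4 -0.55 (0.0608). One fit over the 12 libraries gave -0.75 with an adjusted p of 0.11, no longer a call.

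Smox, spermine oxidase (chr2:131491858-131525183), stood at 471, 119.6, 132 and 150.3 in WT, at 114, 137, 119 and 59.5 in Eμ-Myc and at 185, 116, 44.1 and 53.3 in the knockout. WT library 1 was more than 3 times any other WT library, and the groups overlapped. The log2 difference between Eμ-Myc and WT was -0.83 ± 0.44 (adjusted p 0.139, limma), and -0.38 without WT library 1 (adjusted p 0.259). Paox, which oxidizes the acetylated polyamines (chr7:140115735-140134334), was low in coverage, with 12.4, 13.9, 13.3 and 14.1 in WT, 17.3, 18.1, 17.7 and 20.7 in Eμ-Myc and 15.9, 15.9, 22.4 and 21.1 in the knockout. Its WT libraries lay below all transgenic libraries, and the change in Eμ-Myc was 0.45 ± 0.12 (adjusted p 0.0102, limma). With scaling to total coverage Paox was at 0.31 (adjusted p 0.0728). Of the 50-base words of Paox transcripts, 25.2% also occur in Gm19680, so part of its coverage is uncertain in source. For Oaz1 and Sms, 20.1% and 17.4% of words occur in the pseudogenes Oaz1-ps and Sms-ps, and for Odc1, 11.7% occur in Gm7993. Counted over all other genes, the shares were 28.5% for Paox, 24.3% for Odc1, 21.0% for Oaz1 and 17.5% for Sms.

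Myeloid marker levels differed between libraries together with Sat1 and Smox in part. WT library 1, highest in both genes, also had the highest summed myeloid coverage, 25637, against 8232 to 14790.0 in the other WT libraries. WT library 4 had the next highest myeloid sum of its group, 14790.0. Its Smox was also the next highest, at 150.3, but its Sat1 was the lowest. Within Eμ-Myc, library 2 was highest in myeloid markers (16803), Sat1 and Smox, and library 4 was lowest in all of them, at 5708 for the markers. The sum is carried by S100a8, S100a9 and Lyz2, and of the other 5 markers Elane and Mpo were also highest in Eμ-Myc library 2 (145 and 124), while Csf1r, Itgam and Adgre1 were not. Csf1r, Itgam and Adgre1 were also lowest in Eμ-Myc library 4, at 97.5, 47.2 and 114. Csf1r was at 258 and 199.8 in Eμ-Myc libraries 1 and 2, Itgam at 127.5 and 101, and Adgre1 was highest in library 3 (323, against 189 in library 2). Within the knockout, library 1 was highest and libraries 3 and 4 were lowest in the myeloid sum, Sat1 and Smox. All 8 myeloid markers were detected at 1 or more in every library. None of them was called between Eμ-Myc and WT, beside 55.8% of all genes tested. T-cell markers were called lower in Eμ-Myc for 7 of 7 tested, and NK-cell markers for 5 of 5. Of all genes tested, 26.7% were called lower, which is the background for these and the next counts. Also called lower were Xbp1 (-0.61) and Prdm1 (-1.12), 2 of the 4 plasma-cell genes, and Itga2b (-1.245), 1 of the 4 platelet markers. The part of these other cell types in the differences of Sat1 and Smox, or of the synthesis genes, was not tested.

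**Figure D2:**
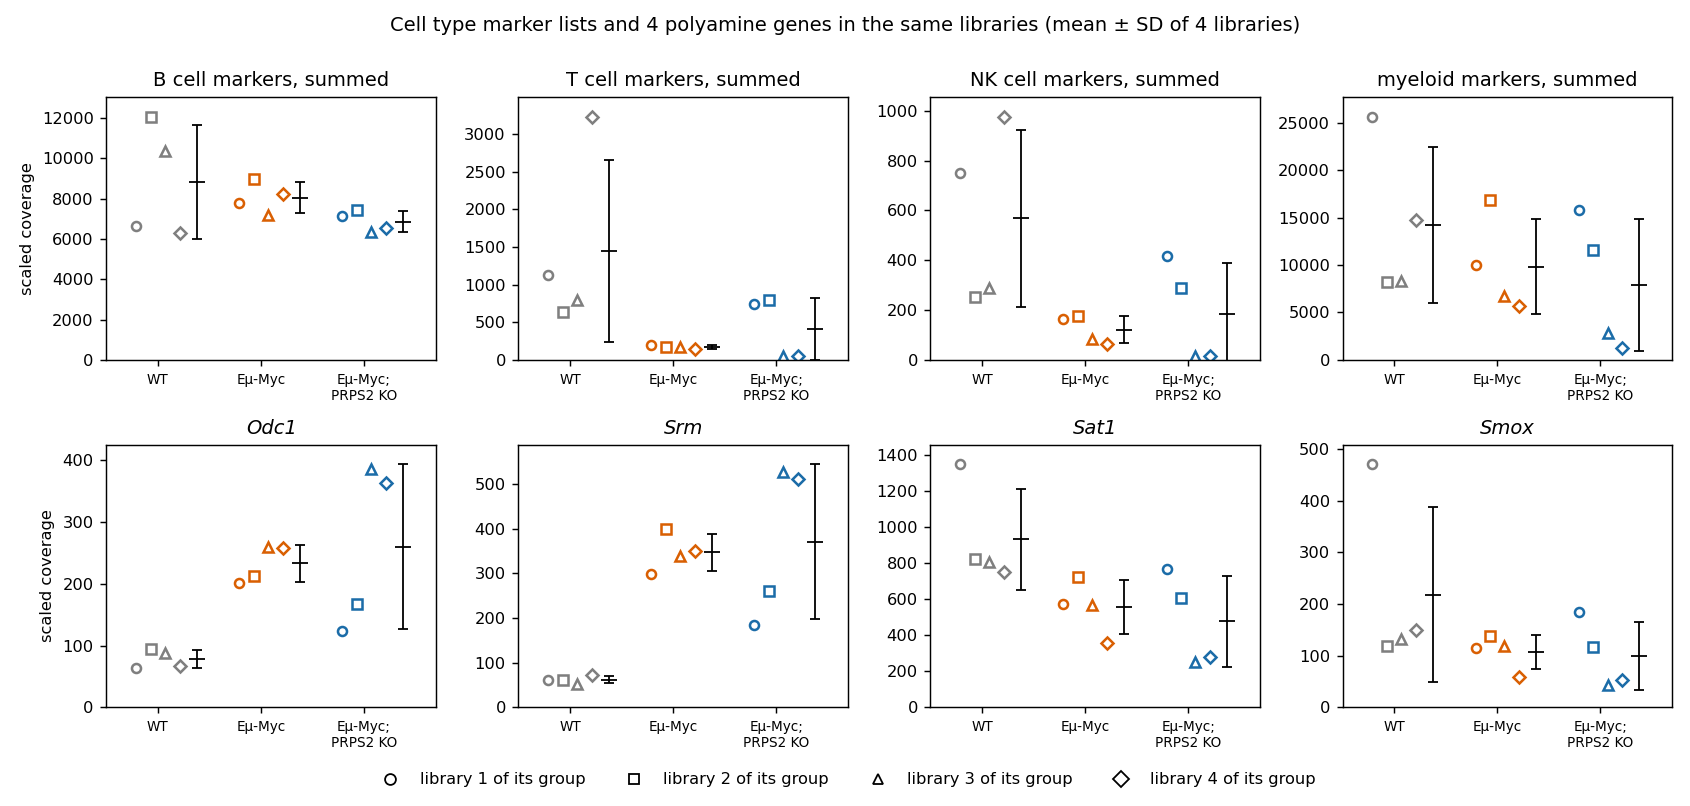
Upper row, scaled coverage summed over the B-cell, T-cell, NK-cell and myeloid marker lists in each library, and lower row, scaled coverage of Odc1, Srm, Sat1 and Smox (linear axes from 0, symbols for libraries 1 to 4, mean ± SD of 4, error bars cut at 0). WT library 1 is highest in myeloid markers, Sat1 and Smox, and knockout libraries 3 and 4 are lowest in T-cell, NK-cell and myeloid markers and highest in Odc1 and Srm.

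Loss of Prps2 in Eμ-Myc B cells gave no call among the 10 genes. limma called 0 of 10, none had an unadjusted p under 0.05, and the adjusted p values all rounded to 1. Of 12535 genes tested, 0.00798% were called, which is Prps2 alone, and 1.43% had groups that did not overlap, none of them among the 10. The log2 differences between knockout and Eμ-Myc were 0.00 for Odc1 (95% interval -0.84 to 0.85), 0.05 for Amd1 (-0.58 to 0.69), -0.03 for Srm (-0.81 to 0.75) and 0.01 for Sms (-0.50 to 0.52). For the regulators they were 0.06 for Azin1, -0.20 for Oaz1 and -0.09 for Oaz2, and for breakdown -0.34 for Sat1 (-1.26 to 0.58), -0.28 for Smox (-1.39 to 0.82) and 0.02 for Paox. These intervals are wide, and values near 0 do not show that the groups are alike. With library quality weights, which give knockout libraries 1 and 2 little weight, 9 of the 10 were called, 6 higher and 3 lower, beside 55.8% of all genes.

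The means hide 2 pairs of knockout libraries. For Odc1, Amd1, Srm, Sms and Paox, knockout libraries 1 and 2 were below all 4 Eμ-Myc libraries and knockout libraries 3 and 4 were above all 4. For Azin1, library 1 was below, library 2 inside, and libraries 3 and 4 above the Eμ-Myc range. The opposite order held for Oaz2, Sat1 and Smox, with library 1 above, library 2 inside, and libraries 3 and 4 below the Eμ-Myc range. Oaz1 was below that range in knockout libraries 1 and 2 and inside it in libraries 3 and 4. Myc itself stood at 1125 and 1724 in knockout libraries 1 and 2 and at 2871 and 3123 in libraries 3 and 4, and Prps2 was at 18.7, 17.1, 16.3 and 15.4. The T-cell and myeloid sums given above divided these libraries in the same way, as did the NK-cell sum (419 and 290 against 15.5 and 15.9). So did 3 of the 4 plasma-cell genes, Jchain, Xbp1 and Prdm1. Jchain was at 188 and 235 in libraries 1 and 2 and at 1.9 and 2.32 in libraries 3 and 4, while Sdc1, the other gene of the list, went the opposite way, at 6.97 and 7.8 against 11.7 and 9.61. The platelet sum was high in library 1 alone (129, against 32.0, 31.9 and 36.5 in libraries 2 to 4). The erythroid sum was lower in libraries 1 and 2 (104 and 89.3) than in libraries 3 and 4 (120 and 126). The part of these markers in the polyamine values was not tested.

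Without knockout libraries 1 and 2, 6 of the 10 genes were called against Eμ-Myc, beside 26.0% of all genes tested. They were Odc1 (0.69), Amd1 (0.56), Srm (0.59) and Sms (0.41) higher and Sat1 (-1.02) and Smox (-1.08) lower. Without knockout libraries 3 and 4, none was called, beside 3.66% of all genes, and the log2 differences were -0.68 for Odc1, -0.45 for Amd1, -0.65 for Srm, -0.39 for Sms, 0.34 for Sat1 and 0.51 for Smox. These fits restate where the pairs stand and are no independent evidence. They were added after the data had been seen, the pairs were divided by their marker levels, and each fit leaves the knockout group with 2 libraries.

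The 4 synthesis genes were also higher in the knockout group than in WT. limma called 4 of 10, with a log2 fold change of 1.58 ± 0.38 for Odc1 (adjusted p 0.025), 0.98 ± 0.28 for Amd1 (0.0371), 2.45 ± 0.34 for Srm (0.00873) and 0.71 ± 0.23 for Sms (0.0462). The Sms call was lost with median-of-ratios scaling (0.74, adjusted p 0.0548) and with no filter (0.71, adjusted p 0.0589), which left 3 calls each. It was also lost with the replicate block (0.71, adjusted p 0.0549). The block also ended the Amd1 call (0.98, adjusted p 0.065) and called Sat1 lower (-1.09, adjusted p 0.0449). In all, 30.7% of the 12692 genes tested were called, 19.7% higher and 11.0% lower. This comparison uses the same WT libraries as the one of Eμ-Myc with WT, so the pair of results is not independent. The other 6 genes did not pass, with 0.48 ± 0.19 for Azin1 (adjusted p 0.078), 0.31 ± 0.14 for Oaz1 (0.109), -0.38 ± 0.18 for Oaz2 (0.116), -1.09 ± 0.39 for Sat1 (0.0628), -1.11 ± 0.58 for Smox (0.147) and 0.46 ± 0.16 for Paox (0.0587). Without WT library 1, Smox was at -0.66 and Oaz2 at -0.23. Platelet markers were called lower in the knockout than in WT for 4 of 4, by -1.96 to -2.44 on the log2 scale. The groups overlapped for each of them. The summed platelet coverage of WT library 4 (76.7) lay below that of knockout library 1 (129). The median log2 fold change was -3.25 for the 7 T-cell markers tested and -2.56 for the 5 NK-cell markers, with none called. The part of these markers in these results was not tested.

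Srm was called against WT in each of the 8 fits that leave out 1 library. It was the only gene of the 10 called without any one of WT libraries 1 to 4 or knockout libraries 3 and 4. In those 6 fits the adjusted p ran from 0.0585 to 0.0715 for Odc1, and the log2 fold change of Odc1 stayed between 1.34 and 1.68. That of Amd1 stayed between 0.80 and 1.01, and that of Sms between 0.58 and 0.76. Those 6 fits called 6.16% to 13.2% of all genes. Without knockout library 1, 8 of 10 were called beside 54.1% of all genes, with Azin1, Oaz1 and Paox higher and Sat1 lower (-1.37) beside the 4 synthesis genes. Without knockout libraries 1 and 2 all 10 were called (70.4% of all genes), and without knockout libraries 3 and 4 only Odc1 (0.90) and Srm (1.83) were (11.4% of all genes). The groups of WT and knockout did not overlap for 5 of the 10 genes, the 4 synthesis genes and Paox, against 38.2% of all genes tested. For WT and Eμ-Myc, 7 of 10 did not overlap (Sat1 as the lower one), against 52.1% of all genes tested.

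**Figure D3:**
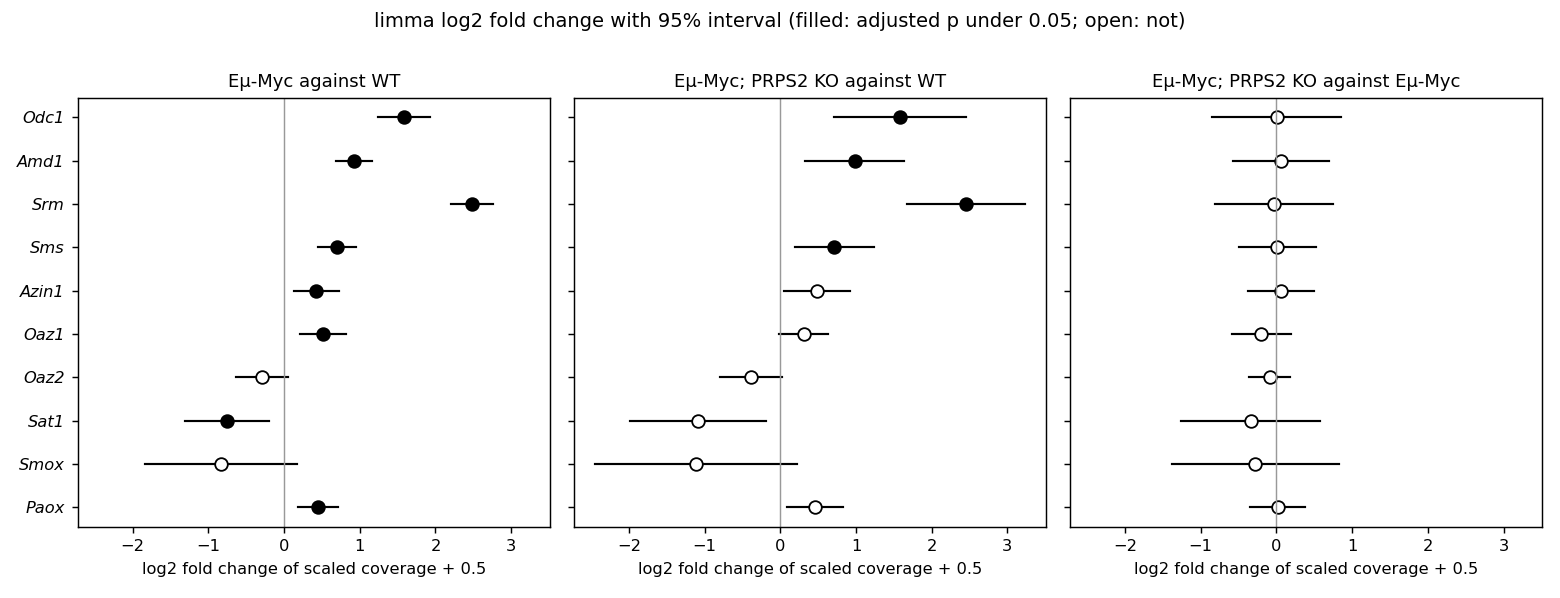
limma log2 fold change of scaled coverage + 0.5 with its 95% interval for the 10 genes in the 3 comparisons, filled where the adjusted p was under 0.05. In Eμ-Myc against WT 8 points are filled, in Eμ-Myc; PRPS2 KO against WT the 4 synthesis genes are, and in Eμ-Myc; PRPS2 KO against Eμ-Myc none is and the intervals span 0.

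Ratios of 2 genes within a library hardly depend on how the library was scaled (0.5 is added to each scaled value before log2 ratios are taken and tested), and the regulators allow the balance of RNA to be read this way. The ratio itself sets genes of unlike length side by side, so only its difference between groups is read. Odc1 over Oaz1, the enzyme over its antizyme, was 0.0772, 0.113, 0.125 and 0.0783 in WT, 0.204, 0.145, 0.248 and 0.229 in Eμ-Myc and 0.151, 0.183, 0.345 and 0.312 in the knockout. All transgenic libraries were above all WT libraries, by 1.07 on the log2 scale for Eμ-Myc and 1.27 for the knockout. Odc1 over Azin1 was likewise higher without overlap, by 1.16 in Eμ-Myc and 1.10 in the knockout. Srm over Sms rose from 1.66, 1.33, 1.24 and 1.51 in WT to 4.8, 5.65, 4.68 and 4.54 in Eμ-Myc and 3.54, 4.71, 5.68 and 5.41 in the knockout, a log2 difference of 1.78 and 1.74.

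For these 3 ratios, the exact two-sided permutation p against WT was 0.0286 in both transgenic groups, the smallest that 4 libraries against 4 allow, and 0.0571 after Benjamini-Hochberg adjustment over the 12 tests made, which misses 0.05. Amd1 over Sms overlapped between all groups, with a log2 difference of 0.22 in Eμ-Myc (exact permutation p 0.229, adjusted 0.343). Between the knockout and Eμ-Myc the 4 ratios differed by -0.05 to 0.21 on the log2 scale, and the exact permutation p ran from 0.514 to 0.857.

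**Figure D4:**
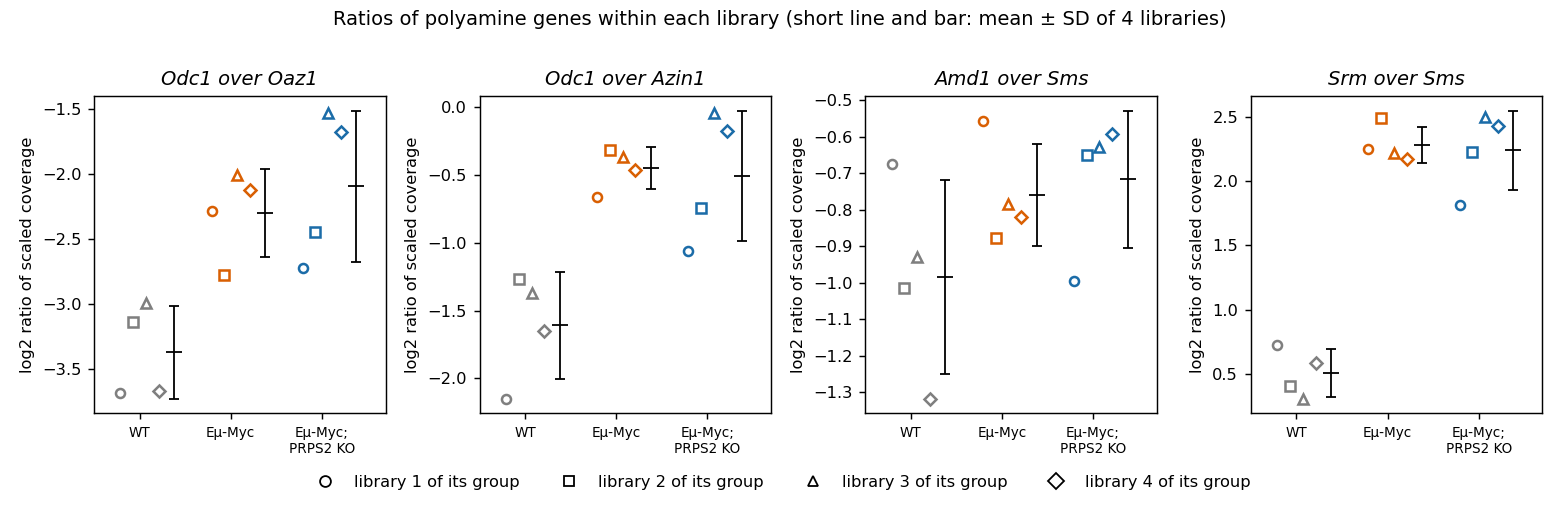
Log2 ratio of scaled coverage of 2 genes within each library, with symbols for libraries 1 to 4 of WT, Eμ-Myc and Eμ-Myc; PRPS2 KO and the mean ± SD of 4. Odc1 over Oaz1, Odc1 over Azin1 and Srm over Sms are higher in all 8 transgenic libraries than in the 4 WT libraries, and Amd1 over Sms overlaps.

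The pathways that feed the polyamines and use them were followed in lists of their genes. In the methionine cycle and the salvage of methylthioadenosine, which recycles the by-product of spermidine and spermine synthesis, 12 of 13 genes were tested, and in Eμ-Myc against WT 10 were called higher and 1 lower. The shares over all genes in this comparison, given above, were 29.1% higher and 26.7% lower, and they are the background for each list that follows. Ahcy, which hydrolyses S-adenosylhomocysteine, stood at 24.3, 24.8, 21.1 and 22.5 in WT and at 84.0, 93.8, 112 and 114 in Eμ-Myc, a log2 fold change of 2.09. The salvage genes Mtap, Mri1, Apip, Enoph1 and Adi1 were each called higher, by 0.64 to 0.74. Mat2a, which makes S-adenosylmethionine, was higher by 0.65. Ahcyl2 was the one called lower, at -1.06, and Mat2b did not pass (-0.03). The median of the list was 0.65.

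For the supply of ornithine and arginine, 7 of 9 genes were tested and 5 were called higher in Eμ-Myc and none lower. Ass1, argininosuccinate synthase, rose most, from 53.7, 37.6, 36.5 and 81.8 in WT to 319, 396, 423 and 413 in Eμ-Myc, a log2 fold change of 2.95. Aldh18a1, which starts ornithine and proline synthesis from glutamate, was higher by 1.17, the arginine transporter Slc7a1 by 1.10, the mitochondrial ornithine carrier Slc25a15 by 1.03 and Oat by 0.77. Asl (-0.27) and Slc7a2 (0.36) did not pass. Otc and Agmat were listed at 0 in all 12 libraries.

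Hypusination uses spermidine to modify the translation factor eIF5A. Of the 4 genes in that list 2 were called higher in Eμ-Myc, Eif5a itself by 1.41 and Dohh, the hydroxylase of the last step, by 0.90. Dhps, which transfers the spermidine moiety, did not pass (0.31, adjusted p 0.0522). Eif5a2 did not pass either and went the other way (-0.39, adjusted p 0.191). Of 9 transport genes 5 were tested. Slc18b1 stood at 0.492 to 0.686 in WT and at 2.73 to 4.79 in Eμ-Myc, so it reached the filter level of 1 through Eμ-Myc alone and its call is not counted. Of the other 4, Atp13a3 (0.63) and Slc3a2 (0.37) were called higher. Of the minor paralogs Amd2, Azin2, Oaz3, Sat2 and Satl1, only Amd2 was tested in this comparison, and its coverage is not separate from that of Amd1.

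In the knockout against WT, the calls in these lists were 8 higher of 12 tested for methionine, 4 of 7 for ornithine and arginine and 1 of 4 for hypusination, with none lower, against 30.7% of all genes called and 19.7% called higher. Of the 4 transport genes other than Slc18b1, which again passed the filter through the transgenic group alone, Atp13a3 was called higher (0.90). Ahcy was higher by 2.04, Ass1 by 2.92, Slc7a1 by 1.43 and Eif5a by 1.29. Ahcy showed the spread of the synthesis genes, with 49.4, 68.6, 157 and 166 in knockout libraries 1 to 4. Between the knockout and Eμ-Myc no gene of these 4 lists was called.

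**Figure D5:**
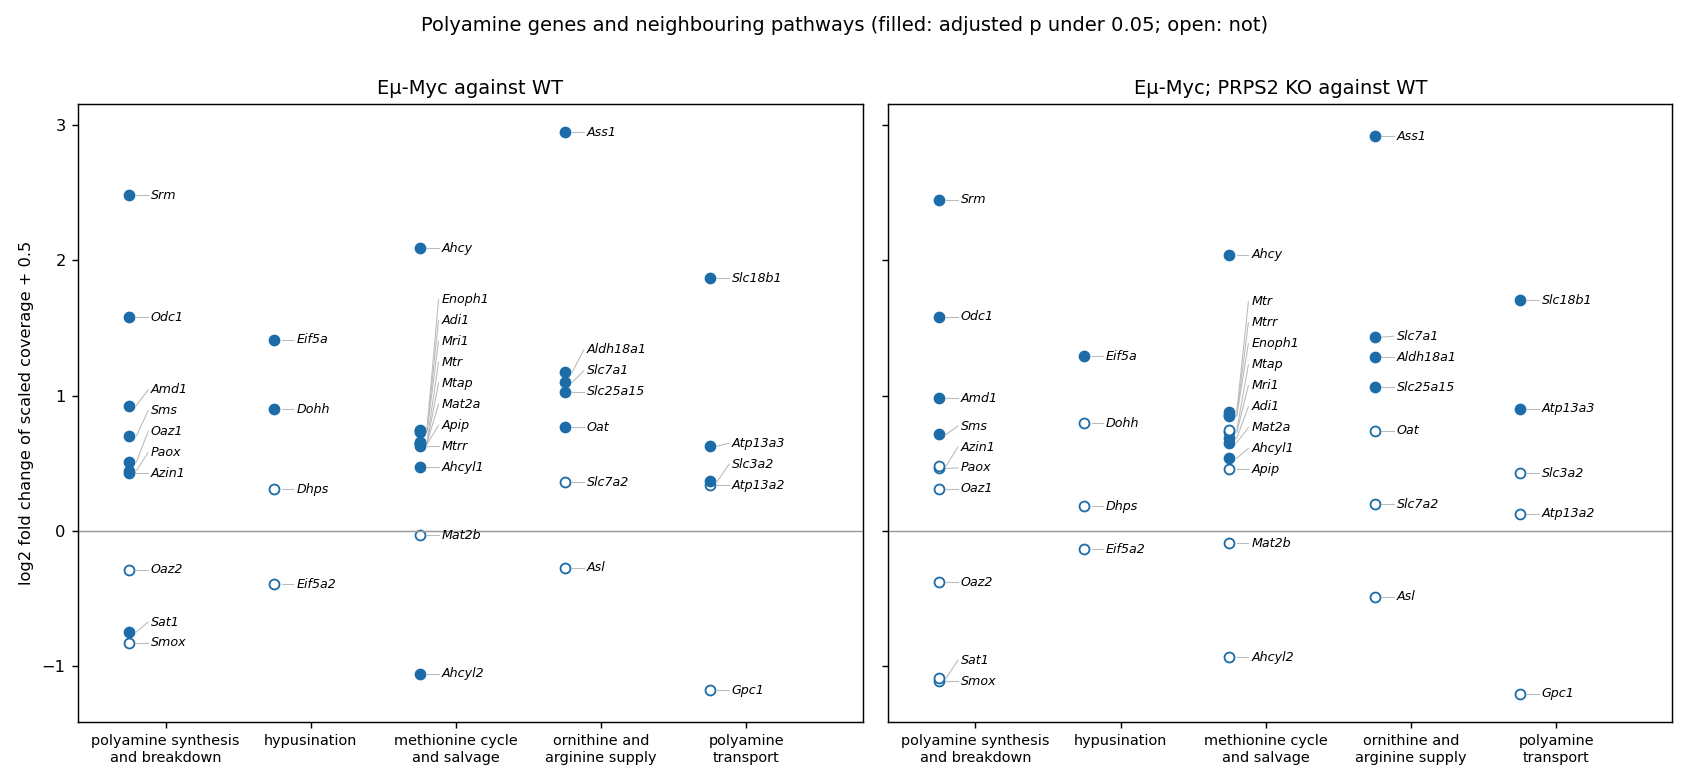
limma log2 fold change of scaled coverage + 0.5 for each tested gene of the polyamine list and of 4 neighbouring lists, in Eμ-Myc against WT and in Eμ-Myc; PRPS2 KO against WT, filled where the adjusted p was under 0.05. Ass1, Srm and Ahcy stand highest in both panels, while Sat1, Smox, Ahcyl2 and Gpc1 lie below 0.

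The genes nearest to Odc1 in pattern were found by the root mean square distance of log2 values over the 12 libraries, each gene centred on its own mean, among 12945 other genes. Tma16, a factor of ribosome assembly, and Gemin6, of the SMN complex, ranked 2 and 3, at distances of 0.099 and 0.105. The mean of Tma16 was 24.8 ± 4.43 for WT, 81.9 ± 13.3 for Eμ-Myc and 84.7 ± 43.1 for the knockout (SD, n = 4). Among the polyamine genes Amd1 was nearest, at 0.35 and rank 732, ahead of Sms (0.47) and Srm (0.48), and Smox was farthest at 1.64.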

How the data were processed

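RNA of splenic B lymphocytes was sequenced in 12 libraries. For each library the authors deposited a table of gene symbols and their coverage, which the values show to be a signal with 1 decimal. The submitters' processing notes name mm10, DESeq and R 4.3.3. The aligner, the counting step and the annotation are not given in the sources used here, and no interval for counting error could be made. The labels call the 4 libraries of a group biological replicates and do not say whether mice were pooled.

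Coverage was divided by 1 factor per library, from unweighted trimmed means of log ratios (trimming 30% of the ratios and 5% of the means from both tails, over genes with coverage of at least 1). Testing covered genes that reached 1 in 4 or more of the 8 libraries of a comparison, with limma 3.58.1 (trended prior, robust empirical Bayes, two-sided) on log2(scaled coverage + 0.5). Fold changes are on that scale, which understates changes of low genes. A call is an adjusted p under 0.05, by Benjamini-Hochberg across the whole set tested. The steps were run on simulated data with independent noise for each gene. Such data do not hold the split between knockout libraries seen here. Ratios were tested with scipy 1.17.1. Same-numbered libraries of the knockout and Eμ-Myc groups deviated together over genes (r from 0.187 to 0.639). Libraries of unlike number were not compared, so these values do not show that the numbers are pairs. The reported tests were unpaired, and a replicate block was fitted as an alternative. The members and lists were chosen with earlier results of these data known. All members were named. From the other lists, a gene could be named if it was called in Eμ-Myc against WT or reached a mean of 1 in a group. Naming Otc, Agmat, Azin2, Oaz3 and Satl1, which were listed at 0 or stayed under that level, went beyond it. A few genes of the lists and of the likeness ranking are not reported here.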

Additional observations from a re-analysis of the deposited data

Results flagged for a closer look

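Each of the 30 groups of 4 values for the 10 genes, and each of the 12 groups for the ratios, was searched for a library far from the other 3 of its group, by a gap to the nearest library, as a share of the whole range, above Dixon's 95% critical value. Chance gives about 1 such library in 20 groups, and 5 were found among 42. Sat1 in WT library 1 was at 1349, with a gap of 0.879 of the range, and Smox in the same library was at 471, with a gap of 0.913. Amd1 was lowest in WT library 4, at 18.9, with 0.839 of the range. Oaz1 was lowest in WT library 3, at 704, with 0.875. The log2 ratio of Amd1 over Sms was lowest in knockout library 1, at -0.99, with 0.856.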

How the results depend on the processing

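Every log2 fold change of the 10 genes against WT, in both transgenic groups, kept its direction in each alternative run. In Eμ-Myc against WT 6 to 9 of 10 genes were called, 6 to 8 where 1 library was left out and 8 with the replicate block. Of all genes 5561 to 8888 were called in these alternatives (7084 as reported). Scaling to total coverage gave 5 higher and 2 lower, against 7 and 1. In the knockout against WT, 4 were called, and the count was 7 with all 12 libraries in one fit, 10 with library quality weights, 10 without knockout libraries 1 and 2, 2 without knockout libraries 3 and 4, and 1 to 8 where 1 library was left out. With the replicate block 3 were called there (Odc1, Srm and Sat1). The values do not show that the numbers of these groups pair with WT (r from -0.409 to 0.391 over genes, and from -0.098 to 0.251 for Eμ-Myc with WT). All genes called in the knockout against WT numbered 3901, against 1932 with the replicate block, 6095 with 12 libraries, 10607 with weights, 8654 and 1422 without either pair, and 774 to 6748 with 1 library left out.

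In the knockout against Eμ-Myc the 0 of 10 became 9 with library quality weights, which weigh down knockout libraries 1 and 2 (0.0851 and 0.132, against 3.08 and 8.18 for libraries 3 and 4), and 6 without knockout libraries 1 and 2. It was 0 with 1 library left out and with the replicate block, which changed no call. All genes called numbered 1, against 7000, 3167 and, without knockout libraries 3 and 4, 454. Directions turned as follows. Without knockout libraries 3 and 4 the values were -0.68 for Odc1, -0.45 for Amd1, -0.39 for Sms, -0.24 for Azin1, 0.06 for Oaz2, 0.34 for Sat1, 0.51 for Smox and -0.20 for Paox. Srm turned to 0.01 with median-of-ratios scaling, 0.014 with total coverage, 0.58 with weights and 0.59 without knockout libraries 1 and 2, and Oaz1 to 0.10 with weights. With 1 library left out the ranges were -0.24 to 0.31 for Odc1, -0.12 to 0.29 for Amd1, -0.24 to 0.26 for Srm, -0.13 to 0.16 for Sms, -0.048 to 0.176 for Azin1, -0.658 to 0.028 for Smox, -0.071 to 0.089 for Paox, -0.21 to 0.13 for Odc1 over Azin1 and -0.13 to 0.10 for Srm over Sms. The causes were not tested. Leaving out a library, or pairing, cannot bring the exact test of a ratio under 0.05. Read depth is unknown.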
